A study of Mus musculus with 6 samples.

Results

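Ubiquitin-specific proteases (USPs) are the largest family of deubiquitinases. They are cysteine proteases that cut ubiquitin from proteins and so reverse the work of ubiquitin ligases. Single members act on histones, on DNA repair proteins, on receptors at endosomes, at the proteasome or at the spliceosome. In embryonic stem cells they are known above all for H2A and H2B deubiquitination and for the stability of p53 and of pluripotency factors.

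The genes described here are the autosomal protein-coding genes of the mouse whose symbol is Usp followed by digits, with an ending letter allowed. Of 44 such genes in GENCODE release M21 (mm10), 43 had a protein-coding transcript in the deposited table, and Usp50 had none. Each gene is represented by its longest protein-coding transcript in the table. The 43 genes stand among 12543 autosomal protein-coding genes treated in the same way. Together they had 301 transcript models in the table.

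The data are mNET-seq profiles of C57BL/6 embryonic stem cells (6 libraries), all grown in serum, LIF, the GSK3 inhibitor CHIR99021 and the MEK inhibitor PD0325901. Control cells gave 2 libraries, and 2 separate knockouts of Mettl3, called KO1 and KO2, gave 2 each. The Mettl3 protein is the methyltransferase that places m6A on nascent RNA, and the study asked how its loss bears on transcription. mNET-seq sequences the short nascent RNA that RNA polymerase II protects from nuclease, and so shows where polymerases sit along genes. How the knockouts were made, and whether each is 1 clone, is not given in the sources used here. Nor do the labels say that the 2 libraries of a group came from different cultures, so the spread behind each p-value may be technical.

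The measurement is the authors' escaping index, a log2 ratio within a transcript. Its windows are not stated, and from its name and its rise with gene length it is taken here to be higher where more signal lies downstream relative to the start. It says nothing of how much RNA or polymerase a gene has, so it cannot check the loss of Mettl3. More signal at the start and less downstream would both lower it. Raised as powers of 2, the most frequent values are simple ratios plus a small offset, which fixes the log base. A fall of 1 on this scale is a halving of the ratio. The read depth behind a value is unknown. Pearson's r between the replicates of a group across the 12543 genes was 0.969 (control), 0.975 (KO1) and 0.978 (KO2), and genes are not independent replicates. All 12 embryonic stem cell markers looked for, Pou5f1, Sox2 and Nanog among them, were in the table. Of 10 fibroblast (feeder cell) markers 4 were there and 6 were not, Col1a2, Col3a1 and Dcn among the absent. Of 7 endoderm and trophoblast markers 6 were absent, Gata4, Gata6 and Cdx2 among them. The rule by which transcripts entered the table is not given in the sources used here, and the index gives no marker a level.

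In control cells the USP genes had a high index. The median over the 43 genes was 6.31 and 6.49 in the control libraries, against 4.80 and 4.82 over all 12543 genes. On the linear scale these are ratios of 79.3 and 89.7 against 27.9 and 28.3. USP genes are also long. Their median span was 53.02 kb with 17 exons, against 22.4 kb with 8 exons over all genes, and 88.4% of them were longer than the median gene. The control index rose with length across the 43 genes (Pearson's r = 0.587 with log10 span, Spearman's rho = 0.589), as it did across all genes (0.688 and 0.680), and all points share the same libraries. Within the 12 USP genes of 60 to 100 kb the median control index was 7.15, and in all 1219 genes of that length it was 6.33.

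The range within the family was wide. Usp24, a very large enzyme encoded by 68 exons over 125 kb, had the highest control index, 9.91 ± 0.376 (SD, n = 2). Next came Usp32 at 9.85 ± 0.470, Usp10 at 8.89 ± 0.210 and Usp38 at 8.54 ± 0.075 (SD, n = 2 each), and the first 2 did not differ beyond their spread. The place of Usp10 rests on its longest transcript, since its 3 other models starting within 500 bases had mean control values from 6.53 to 6.81. At the other end, Usp18, which removes the ubiquitin-like protein ISG15, was at -0.90 and 0.90 in the control libraries. Usp21, a histone H2A deubiquitinase with the shortest gene of the set (6.05 kb), was at 1.49 and 1.54, and Usp49, a histone H2B deubiquitinase, at 2.95 and 2.99. The remaining 36 genes had mean control values from 4.49 (Usp44) to 8.51 (Usp45).

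**Figure D1:**
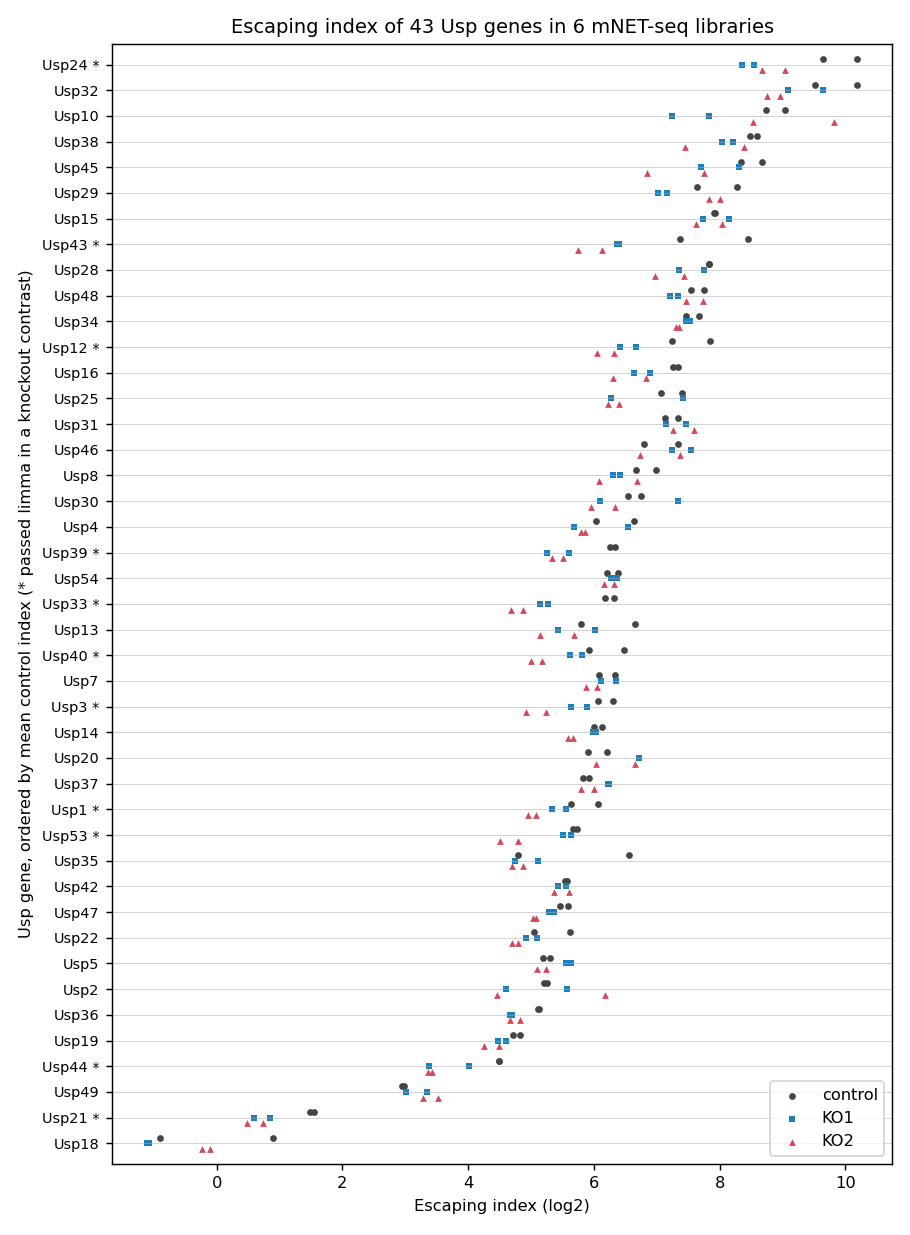
Escaping index (log2, x axis) of each of the 43 Usp genes (y axis, ordered by mean control index) in the 2 control, 2 KO1 and 2 KO2 libraries, 1 point per library; an asterisk marks genes that passed the limma test in a knockout contrast. The 11 marked genes have both KO2 libraries below both controls.

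The index of most USP genes was lower in both knockouts, by about as much as that of other genes. In KO1, 33 of 43 were below control, with a median difference of -0.39 (76.4% of the control ratio), against -0.37 over all genes. In KO2, 37 of 43 were below control, with a median of -0.50 (70.7% of the control ratio), against -0.58 over all genes. In the average of both knockouts 37 were below control, with medians of -0.45 and -0.47. Both contrasts use the same 2 control libraries. With the median over all genes taken off each library, the USP genes split into 22 lower and 21 higher in KO1, and into 20 lower and 23 higher both in KO2 and in the average. The median difference of the family was thus close to that of the whole table.

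Tested by limma over all 12543 genes with Benjamini-Hochberg adjustment at 0.05, 2 USP genes fell in KO1, where 6.83% of all genes fell (7.14% changed in either direction). In KO2 11 of 43 (25.6%) fell, against 29.3% of all genes (29.9% in either direction). In the average 10 fell, against 26.3% of all genes (26.9% in either direction). None rose in any contrast (0.311%, 0.566% and 0.558% of all genes did), and at an unadjusted p under 0.05 only Usp20 in KO1 was higher, while 10, 18 and 15 of 43 were lower in KO1, KO2 and the average (30.1%, 44.9% and 42.8% of all genes). Both KO1 libraries lay below both controls in 23 members (53.7% of all genes) and both KO2 libraries in 27 (67% of all genes). All 4 knockout libraries lay below both controls in 18 members (45.6% of all genes). The libraries lay wholly above control in 4 members in KO1 (8.43% of all genes), 1 in KO2 (5.01%) and 1 over all 4 (2.12%). These shares are near those of all genes, so they are no result about the family. With any 1 library left out, fewer members were called in KO1, KO2 and the average. So were fewer genes of the whole table, so this drop is not particular to the family. After centring no gene at all was called, and at an unadjusted p under 0.05 there were then 4 lower and 4 higher members in KO1 (10.1% and 10.7% of all genes), and 5 lower and 8 higher in KO2 (12.1% and 10.9% of all genes).

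**Figure D2:**
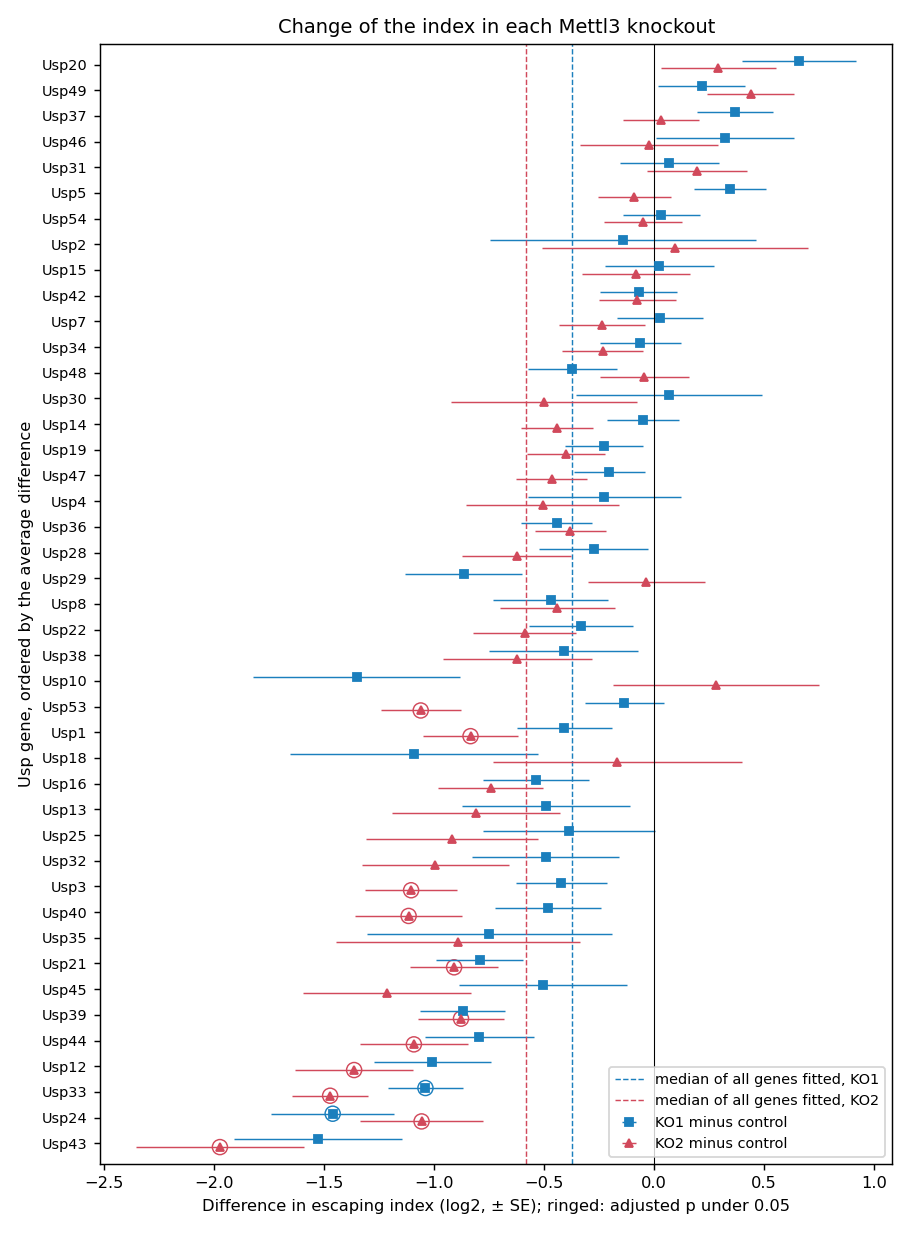
Difference of the escaping index from control (log2, x axis, bars are limma standard errors) in KO1 and KO2 for the 43 Usp genes (y axis, ordered by the average of both), with dashed lines at the median of all 12543 genes. Rings mark limma adjusted p under 0.05, which 2 genes have in KO1 and 11 in KO2, all to the left of zero.

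Usp43, a little studied member on chromosome 11 (67854523 to 67922153, mm10), had the largest fitted fall. Its index was 8.46 and 7.36 in control, 6.39 and 6.38 in KO1, and 5.74 and 6.13 in KO2. All 4 knockout values lay below both controls, although the control libraries were 1.10 apart. The difference was -1.97 ± 0.38 (SE) in KO2, or 25.5% of the control ratio (limma adjusted p = 0.0219), and -1.53 ± 0.38 in KO1 (adjusted p = 0.0648, not passing). Its rank rests on control replicate 1: without it the differences were -1.43 in KO2, where Usp12 was then at -1.67, and -0.98 in KO1, where Usp24 was at -1.73. A transcript of the noncoding gene 9130017K11Rik starts 223 bases upstream of Usp43 on the other strand, and another of its transcripts overlaps Usp43. Whether strand was used in counting is not given in the sources used here.

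Usp33, which acts on beta-adrenergic and Robo receptors, had the smallest p of the family. It was at 6.31 and 6.18 in control, 5.15 and 5.27 in KO1, and 4.69 and 4.87 in KO2, so the groups did not overlap and each was tight. The index fell by 1.04 ± 0.17 in KO1 (limma adjusted p = 0.0407) and by 1.47 ± 0.17 in KO2 (adjusted p = 0.0169). The ratio was thus 48.7% and 36.0% of control. After centring the differences were -0.65 and -0.91 (adjusted p = 0.144 and 0.098). The gene lies on chromosome 3 (152346478 to 152393612) and overlaps 4 other annotated genes, none of them annotated as protein-coding.

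Usp24 was the other member that fell in KO1. Its control libraries were at 9.65 and 10.18, KO1 at 8.36 and 8.54, and KO2 at 8.67 and 9.04. The difference was -1.46 ± 0.28 in KO1 (limma adjusted p = 0.0457) and -1.06 ± 0.28 in KO2 (adjusted p = 0.0406), and the difference between KO2 and KO1 did not pass (0.40 ± 0.28, adjusted p = 0.457). It lies on chromosome 4 (106316213 to 106441317) and overlaps no other annotated gene.

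The role groups were chosen with results known and are described without a test, and 29.3% of all genes fell in KO2. Of 7 histone deubiquitinases 3 fell there. Usp3, an H2A deubiquitinase of the DNA damage response (chromosome 9), was at 6.31 and 6.07 in control, 5.64 and 5.89 in KO1, and 4.93 and 5.24 in KO2. Its KO2 difference was -1.10 ± 0.21 (limma adjusted p = 0.0212), and its KO1 libraries also lay below both controls without passing. Usp21 was at 0.85 and 0.60 in KO1 and at 0.48 and 0.73 in KO2, a difference of -0.91 ± 0.20 in KO2 (adjusted p = 0.0265) from the control values given above. Usp44, an H2B deubiquitinase that also guards the mitotic checkpoint, was at 4.49 in both controls, 4.02 and 3.37 in KO1, and 3.43 and 3.37 in KO2 (-1.09 ± 0.25 in KO2, adjusted p = 0.0284). The other 4 did not pass. They were Usp16 (-0.74 in KO2), another H2A deubiquitinase, Usp22 (-0.59), the enzyme of the SAGA coactivator, Usp48 (-0.04) and Usp49 (0.44). The small Usp48 difference is that of its longest transcript. Its 4 other models starting within 500 bases had KO2 differences from -0.68 to -0.28, which were not tested.

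In the DNA repair and p53 group 1 of 5 fell in KO2 (20%, against 29.3% of all genes). Usp1, which deubiquitinates Fancd2 and PCNA, was at 6.07 and 5.63 in control, 5.55 and 5.33 in KO1, and 5.07 and 4.96 in KO2. Its difference was -0.83 ± 0.21 in KO2 (limma adjusted p = 0.0377) and it did not pass in the average (adjusted p = 0.0573). The 2 other Usp1 models starting within 500 bases had smaller KO2 differences, -0.34 and -0.28, which were not tested. Usp7, which acts on Mdm2 and p53, was at 6.07 and 6.33 in control, 6.35 and 6.12 in KO1, and 5.88 and 6.05 in KO2. KO1 overlapped control. Both KO2 libraries of Usp7 lay below both controls without passing (-0.24 ± 0.20, limma adjusted p = 0.374). Usp28, a partner of 53BP1 (-0.62 ± 0.25), Usp47 (-0.47 ± 0.16) and Usp10 (0.28 ± 0.47) did not pass in KO2. Usp1 and its relatives Usp12 and Usp46 all work with the cofactor Wdr48.

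Of 4 members linked to splicing and nuclear speckles, 1 fell in KO2 (25%, against 29.3% of all genes). Usp39, a component of the tri-snRNP that lacks protease activity, was at 6.34 and 6.26 in control, 5.26 and 5.60 in KO1, and 5.51 and 5.33 in KO2. The difference was -0.88 ± 0.19 in KO2 (limma adjusted p = 0.0270) and -0.87 ± 0.19 in KO1 (adjusted p = 0.0543). Usp4, Usp15 and Usp42 did not pass, with KO2 differences of -0.51, -0.08 and -0.08. None of the 3 members that act on free ubiquitin or at the proteasome passed. These were Usp5, which disassembles free chains (-0.09 in KO2), its relative Usp13 (-0.81) and Usp14, which binds the proteasome (-0.44). The mitochondrial Usp30 (-0.50) and the endoplasmic reticulum enzyme Usp19 (-0.40) did not pass, nor did the nucleolar Usp36 (-0.38). Of the endosome and receptor group, Usp33 fell, and Usp8, which works with the ESCRT machinery (-0.44), Usp20 (0.29) and Usp32 (-0.99) did not pass.

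The other members that fell were Usp12, whose values stand with its start region, Usp40 and Usp53. Usp40 was at 5.92 and 6.49 in control, 5.63 and 5.82 in KO1, and 5.18 and 5.00 in KO2 (-1.12 ± 0.24 in KO2, limma adjusted p = 0.0259). It overlaps Dgkd. Usp53, a protein of tight junctions, was at 5.74 and 5.68 in control, 5.64 and 5.50 in KO1, and 4.79 and 4.51 in KO2. It fell in KO2 (-1.06 ± 0.18, adjusted p = 0.0184), while the KO1 difference was -0.13 ± 0.18, which turned to 0.25 after centring. Members in no role group that did not pass were Usp2, Usp25, Usp29, Usp31, Usp34, Usp35, Usp37, Usp38, Usp45 and Usp54, with average differences from -0.86 (Usp45) to 0.20 (Usp37).

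No USP gene rose. The largest positive differences in the average were in Usp20, Usp49, Usp37 and Usp46, none of which passed. Usp20 was at 5.90 and 6.21 in control, 6.71 and 6.72 in KO1, and 6.66 and 6.04 in KO2, so only KO1 lay wholly above control (average difference 0.48 ± 0.23, limma adjusted p = 0.158). Usp49 was at 3.35 and 3.02 in KO1 and at 3.53 and 3.29 in KO2, with all 4 values above both controls (0.33 ± 0.17, adjusted p = 0.190). In Usp37, a deubiquitinase of cyclin A, both KO1 libraries were above control (6.25 and 6.22 against 5.92 and 5.82) and KO2 was not (6.01 and 5.79). Usp46 was at 7.35 and 6.80 in control, 7.24 and 7.55 in KO1, and 7.37 and 6.73 in KO2, and its groups overlapped. The average difference of this transcript, 0.15 ± 0.27, turned to -0.12 without control replicate 2 and to -0.01 without KO2 replicate 1. Another coding model of Usp46, starting within 500 bases of it, did not overlap. That model was at 7.09 in both controls, 7.43 and 7.77 in KO1, and 7.61 and 7.16 in KO2 (average difference 0.40, not tested).

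No member, and no gene of the 12543, passed the limma test of KO2 against KO1 (0% called), with 2553 genes and 7 members at an unadjusted p under 0.05. Both KO2 libraries lay below both KO1 libraries in 16 members (41.4% of all genes) and above them in 5 (13.4%). Usp10, which acts on p53 and binds the stress granule protein G3bp1, had the largest difference. It was at 8.74 and 9.04 in control, 7.24 and 7.83 in KO1, and 9.82 and 8.52 in KO2. KO1 lay below control and KO2 on both sides of it, and the KO2 value exceeded that of KO1 by 1.63 ± 0.47 (adjusted p = 0.164), with KO2 libraries 1.29 apart. The size of this difference rests on the model used. The 3 other Usp10 models starting within 500 bases had KO1 differences from -0.51 to -0.46 and KO2 differences from 0.04 to 0.08. Near its start the longest transcript overlaps the coding gene Gm20388. The KO2 value of Usp53 minus that of KO1 was -0.93 ± 0.18 (adjusted p = 0.128). Usp29, an imprinted gene that starts 152 bases from Peg3 on the other strand, was at 8.28 and 7.64 in control, 7.01 and 7.17 in KO1, and 8.01 and 7.84 in KO2 (0.83 ± 0.27, adjusted p = 0.182). Usp18 was at -1.08 and -1.10 in KO1 and at -0.23 and -0.10 in KO2 (0.92 ± 0.57, adjusted p = 0.407), both within the span of its 2 control values or close below it.

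Related USP genes can be compared within a library. From the family 12 pairs of relatives were chosen with results known, and they are not a full list. For each pair the difference of the 2 indices was taken within every library, which removes a shift shared by the whole library. In 7 of 12 pairs the 4 knockout values did not overlap the 2 control values. The share among other pairs of genes was not computed, so this count is no result about related genes. The exact permutation test (2 control against 4 knockout libraries, 15 splits, two-sided) gave p = 0.0667 in 5 pairs, the smallest p this design allows, so no pair could pass 0.05.

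Usp20 minus Usp33 was -0.41 and 0.02 in control, 1.56 and 1.45 in KO1, and 1.97 and 1.17 in KO2, a change of 1.73. The pair had nearly the same index in control and differed widely in all knockout libraries. Usp31 minus Usp43 went from -1.13 and -0.23 in control to values between 0.75 and 1.52, a change of 1.88. Usp44 minus Usp49 was 1.54 and 1.50 in control, 0.67 and 0.35 in KO1, and -0.10 and 0.08 in KO2, a change of -1.27 between the 2 H2B enzymes. Usp12 minus Usp46 was -0.10 and 1.05 in control and between -1.32 and -0.41 in the knockouts, a change of -1.34. Usp24 minus Usp34 was 2.18 and 2.51 in control and between 0.89 and 1.73 in the knockouts, a change of -1.11. In each of these 5 pairs 1 gene fell in KO2 and its relative did not pass. The change of a pair uses the same values as that call and adds no separate evidence. The other 2 without overlap were Usp36 minus Usp42 (-0.34) and Usp53 minus Usp54 (-0.59), each with exact p = 0.133. The remaining 5 pairs overlapped, with changes from -0.34 (Usp4 minus Usp15) to 0.78 (Usp5 minus Usp13).

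**Figure D3:**
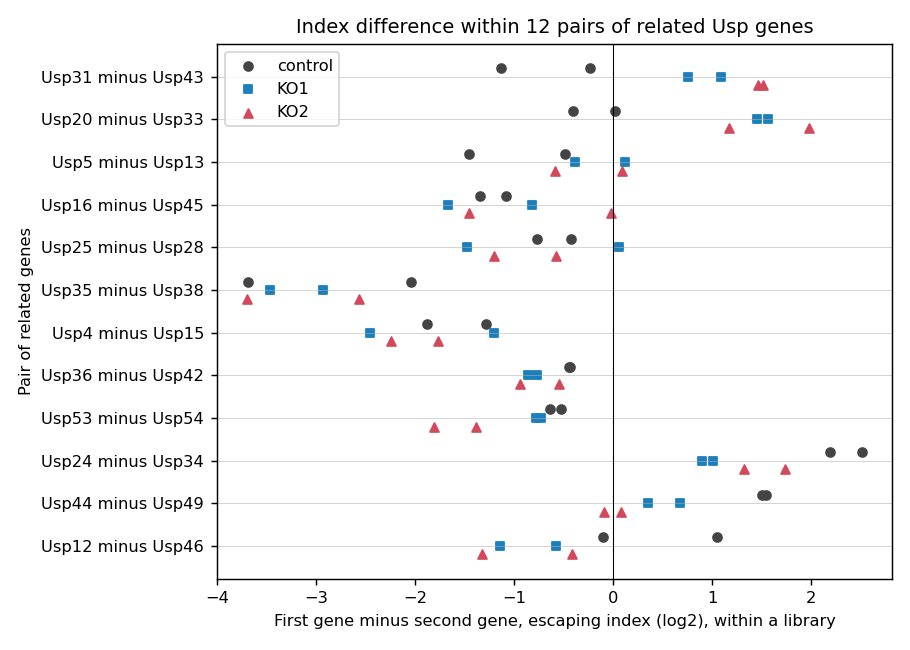
Escaping index of the first gene minus that of the second (log2, x axis) within each of the 6 libraries, for 12 pairs of related Usp genes (y axis, ordered by the change). For Usp31 minus Usp43 all 4 knockout libraries lie above both controls, with a change of 1.88, and for Usp12 minus Usp46 all lie below, with a change of -1.34.

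The start regions of 2 such pairs are shown because 1 gene of each pair fell while the other did not. Usp12, with control values of 7.24 and 7.85, was at 6.67 and 6.41 in KO1 and at 6.05 and 6.32 in KO2 (-1.36 ± 0.27 in KO2, limma adjusted p = 0.0222). Usp34, the member with the most exons (80), was at 7.46 and 7.67 in control, 7.47 and 7.54 in KO1, and 7.36 and 7.31 in KO2 (-0.23 ± 0.18, adjusted p = 0.351). The windows run from 250 bases before to 50 after the RefSeq start (build GRCm38.p6), 5′ to 3′ on the gene's strand. Capitals mark the GC box GGGCGG or its reverse complement CCGCCC. The Usp12 window is chr5:146794907-146795206 (minus strand), that of Usp46 chr5:74068362-74068661 (minus), that of Usp24 chr4:106315963-106316262 (plus) and that of Usp34 chr11:23306645-23306944 (plus).
Usp12: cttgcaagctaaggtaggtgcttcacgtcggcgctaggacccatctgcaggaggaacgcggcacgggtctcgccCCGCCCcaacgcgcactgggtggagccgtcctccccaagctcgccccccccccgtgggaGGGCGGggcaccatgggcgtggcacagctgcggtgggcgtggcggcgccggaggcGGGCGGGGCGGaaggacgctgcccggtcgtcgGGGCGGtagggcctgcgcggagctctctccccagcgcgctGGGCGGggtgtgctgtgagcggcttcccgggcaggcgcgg
Usp46: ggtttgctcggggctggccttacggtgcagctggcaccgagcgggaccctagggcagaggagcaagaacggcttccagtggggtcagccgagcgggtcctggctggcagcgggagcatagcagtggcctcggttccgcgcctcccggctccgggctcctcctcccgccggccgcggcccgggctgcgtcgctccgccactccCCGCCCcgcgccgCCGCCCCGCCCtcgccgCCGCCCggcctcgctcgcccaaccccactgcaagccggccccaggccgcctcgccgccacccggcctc
Usp24: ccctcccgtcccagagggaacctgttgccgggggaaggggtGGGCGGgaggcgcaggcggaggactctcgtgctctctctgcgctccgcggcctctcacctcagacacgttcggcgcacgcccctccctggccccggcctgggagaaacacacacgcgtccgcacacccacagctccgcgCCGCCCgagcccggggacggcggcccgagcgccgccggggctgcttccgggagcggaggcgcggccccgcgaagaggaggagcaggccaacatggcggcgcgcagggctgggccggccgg
Usp34: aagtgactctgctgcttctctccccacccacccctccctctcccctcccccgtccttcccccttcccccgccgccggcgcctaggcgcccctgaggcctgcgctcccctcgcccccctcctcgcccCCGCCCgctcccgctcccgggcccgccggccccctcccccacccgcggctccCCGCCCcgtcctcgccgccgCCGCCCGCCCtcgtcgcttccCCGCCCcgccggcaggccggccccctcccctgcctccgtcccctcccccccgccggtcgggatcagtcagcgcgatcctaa

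GC content was high in all 4 windows, at 75.7% in Usp12, 78.0% in Usp46, 76.7% in Usp24 and 80.3% in Usp34. They held 6, 4, 2 and 5 GC boxes, so the gene of a pair that fell had more boxes in 1 pair and fewer in the other. RefSeq windows were found for 32 of the 43 genes, 29 of them within 500 bases of the start of the measured transcript, while those of Usp2, Usp54 and Usp7 lie 17899, 22709 and 53966 bases inside it. The 32 windows had a median GC content of 66.3% and 32 CpG, against 53% and 7 over all 32544 windows of the table. Those are all distinct windows and not only the windows of the 12543 genes fitted. A like set of genes was not compared, so these shares show no trait particular to the family. Searched on both strands, the GC box was in 24 of the 32 windows (75.0%, against 35.9% of all windows). The ETS motif CCGGAAG was in 7 (21.9% against 8.91%), CCAAT in 7 (21.9% against 37.4%) and TATAAA in 2 (6.25% against 13.6%), namely Usp19 and Usp40. No window held the NRF1 motif (0.974% of all windows) or the YY1 motif (0.636%). A match is a run of letters and not a shown binding site.

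The difference from control varied with where a transcript model starts. Besides the 43 longest coding transcripts, 95 models of the same genes start within 500 bases of them. Their median control index was 5.31 and their median average difference -0.37, with 79 of 95 below control. Another 161 models, of 39 genes, start more than 500 bases inside the gene. Their median control index was 1.27 and their median average difference 0.07, with 68 of 161 below control. In 33 of these 39 genes the longest transcript had a lower difference than the median of its inner models. That share was not computed over all genes, so the count is no result about the family. The split between models near the start and inner models held over all autosomal protein-coding genes. The medians there were -0.41 for 24863 models near the start and 0.02 for 22162 inner ones. Models of a gene share reads and are not replicates, and these differences were not tested.

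Single genes with more than 1 start varied. Usp44 fell when measured from its coding start, while a noncoding model of it that begins further upstream was at 6.02 and 6.11 in control, 6.17 and 6.67 in KO1, and 7.80 and 7.26 in KO2. All 4 of those knockout values were above both controls. The family had 1 other model starting over 500 bases upstream, a retained-intron model of Usp14. It was at 6.16 and 5.91 in control, 8.16 and 7.14 in KO1, and 5.76 and 5.62 in KO2, so the 2 knockouts went opposite ways. Over all genes, models starting over 500 bases upstream were mostly lower (median -0.28, 71.7% below control). Usp54 was flat on its longest transcript (6.38 and 6.20 in control, 6.17 to 6.37 in the knockouts). Its coding model that begins at the RefSeq start was at 7.25 and 7.22 in control, 8.09 and 8.64 in KO1, and 7.32 and 8.67 in KO2. In Usp7 the longest transcript also begins upstream of the RefSeq start, by 53966 bases. The coding model at that start was at 5.76 and 5.83 in control and between 5.50 and 5.86 in the knockouts, and its groups overlapped. Its average difference was -0.10, as was that of the longest transcript. These models were chosen after their values were seen.

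**Figure D4:**
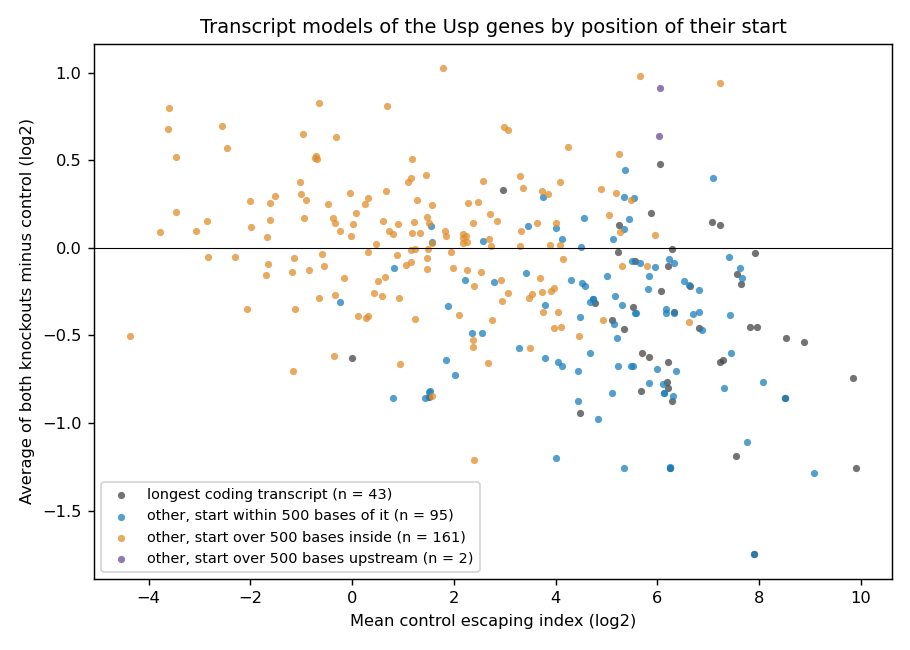
Average difference of both knockouts from control (log2, y axis) against mean control escaping index (log2, x axis) for the 301 transcript models of the 43 Usp genes, 1 point per model, coloured by where the model starts relative to the longest coding transcript. Models starting inside the gene lie around zero (median 0.07) at a low control index, and those near the start lie mostly below it (median -0.37).

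Of 95 other genes of the ubiquitin pathway that were listed (E3 ligases as a class were not), 90 were measured. Of these, 3 fell in KO1 (3.33%, against 6.83% of all genes), and 26 fell and 1 rose in KO2 (28.9% fell, against 29.3%). In the average 21 fell (23.3%, against 26.3%), with a median difference of -0.52. These shares are near or below those of all genes. The 35 other deubiquitinases had a median of -0.43 and 8 fell in the average, the 15 USP partners -0.29 with 3 falls, the 9 ubiquitin and E1 genes -0.30 with 1 fall, and the 31 E2 enzymes -0.66 with 9 falls. The 6 with the smallest p were the deubiquitinases Mindy2 (-1.35 ± 0.17), Otud6b (-1.05 ± 0.15), Otud7a (-1.68 ± 0.27) and Otud4 (-0.83 ± 0.14), the E2 enzyme Ube2g2 (-1.50 ± 0.24) and the ubiquitin ligase Herc2 (-0.91 ± 0.16), with limma adjusted p from 0.0175 to 0.0197. The gene that rose in KO2 was Otulin, which cuts linear ubiquitin chains (0.73 ± 0.21, adjusted p = 0.0484). It is named here after its value was seen.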

How the data were processed

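The authors deposited 1 table of log2 escaping indices for 68473 Ensembl transcripts in 6 libraries, with no missing values. Per the submitters' processing notes, the tools were CASAVA, Trimmomatic 0.38, HISAT2 2.1.0 and featureCounts, with build mm10. Neither their settings nor the index windows are stated there. Transcripts were matched without version to GENCODE release M21 (68397 matched, 76 did not). Each autosomal protein-coding gene was represented by its protein-coding transcript of longest genomic span, which gave 12543 genes.

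One limma model (version 3.58.1, R 4.3.3) held all 3 groups, with a variance trend, two-sided moderated tests, and 3 residual and 2.69 prior degrees of freedom. A call is an adjusted p under 0.05 (Benjamini-Hochberg over the 12543 genes). No rescaling between libraries was applied. Medians over the members have no test. Other tables were made with Python 3.11.15, pandas 2.3.3 and numpy 2.4.6.

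The members, role groups, pairs and pathway lists were chosen with earlier results of these data known. Full values are given for members called in any contrast, the 4 largest positive average differences, the highest and lowest control index, and the 4 largest differences between knockouts. Pathway genes are named with values if among the 6 smallest p in the average; Otulin was added after its value was seen. Alternatives were library centring, quantile normalization, pseudocounts, a filter on low values, other transcripts and gene sets, other variance models, a replicate block and leaving out each library.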

Additional observations from a re-analysis of the deposited data

How the results depend on the processing

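All 11 members that fell in KO2 kept a negative KO2 difference in the 17 alternatives, except that Usp21 had no value under the filter on low values (a mean index of at least 1). A kept sign is not a kept call, and none of them was called in every alternative. The KO2 difference came closest to zero in Usp21 (-0.16), Usp1 (-0.23) and Usp39 (-0.31). Median centring and quantile normalization left 0 members, and no gene at all, called in KO1, KO2 and the average. With centring the median difference of the members was -0.000716 in KO1, 0.0622 in KO2, 0.0202 in the average and -0.0863 in KO2 against KO1, and with quantile normalization -0.0135, 0.0505, 0.0142 and -0.0681. The reversed medians follow from the centring itself, which takes off the shift of the whole table. In KO1 4 members were called with a pseudocount of 10 (median -0.26, and -0.40 in KO2), where 1155 of all 12543 genes were. With all 17349 genes, with only 2 groups in the fit and with the replicate block, 0 members and 0 genes were called in KO1. With the mean of all coding transcripts the median was -0.39 in KO2, -0.34 in the average and -0.13 in KO2 against KO1. Usp53 in KO1 turned to 0.25 with centring and 0.24 with quantile normalization.

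With 1 library left out at a time, the lone library of a group was assumed to vary like the others. Fewer members were then called in KO1, KO2 and the average, and fewer genes of the whole table. The median differences of the members were -0.42 to -0.19 in KO1 and -0.59 to -0.39 in KO2. They were -0.51 to -0.32 in the average and -0.27 to -0.22 in KO2 against KO1. In the average difference, Usp46 ranged from -0.12 (without control replicate 2; -0.01 without KO2 replicate 1) to 0.42, and Usp18 from -1.53 (without control replicate 1) to 0.27 (without control replicate 2). With the replicate number as a block, 0, 11 and 7 members were called in KO1, KO2 and the average. Over all 12543 genes the block gave 0, 2828 and 2474 calls. The numbers do not pair the libraries: same-numbered libraries did not deviate together (r = 0.002, -0.010 and 0.007 across genes). The cause of the other shifts was not tested. Without read counts, no limit from depth can be given.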

Other observations

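The family also has members on the X chromosome, which the choice of genes leaves out. In a fit over all 17349 genes, Usp11, a relative of Usp4 and Usp15, was at 4.94 and 5.20 in control, 4.29 and 4.25 in KO1, and 4.23 and 4.25 in KO2. It fell in KO2 (-0.83, limma adjusted p = 0.0362) and in the average (-0.82, 0.0322). Usp9x, a large enzyme, was at 8.25 and 8.16 in control and between 7.97 and 8.14 in the knockouts, and its KO2 difference of -0.19 did not pass. Usp26, Usp27x and Usp51 did not pass either, with KO2 differences of -0.06, 0.11 and -0.70, and their control libraries were at 3.94 and 4.74, 2.53 and 4.13, and 4.22 and 3.00. The noncoding model of Usp50 had a KO2 difference of -0.11.

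In 7 members the 2 libraries of a group were more than 1 apart. They were Usp18 (1.80), Usp35 (1.75) and Usp43 (1.10) in control, Usp25 (1.14) and Usp30 (1.24) in KO1, and Usp10 (1.29) and Usp2 (1.71) in KO2. Of these 7, only Usp43 passed a test. Of the 43 members, 23 overlap another annotated gene and 8 have a transcript of another gene starting within 1000 bases upstream on the other strand (for Usp38 and Usp43, other transcripts of that gene overlap the member). The median average difference was -0.48 in those 8 and -0.45 in the other 35.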
